A study of Mus musculus with 6 samples.

Results

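The vascular endothelial growth factor (VEGF) family was followed in cultured mouse liver cells through 10 genes: the ligands Vegfa, Vegfb, Vegfc, Vegfd and Pgf, the receptor kinases Flt1, Kdr and Flt4, and the neuropilins Nrp1 and Nrp2. They were taken as every array probe whose transcript accession belongs to one of these genes, Vegfd also being known as Figf. This gave 13 probes of 39429, for 10 of 20659 named genes. Vegfa, Kdr and Nrp2 had 2 probes each and the others 1.

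Of the 6 arrays, 3 held cells positive for the tetraspanin CD63 from adult mouse livers injured with DDC, a porphyrinogenic compound that causes cholestatic injury, and 3 held CD63-positive cells from livers with no injury. The series describes the samples as cell lines, and the labels give neither strain, exact age nor sex, nor the number of animals, nor the dose or duration of DDC. All cells had been grown after the sort with serum, HGF, EGF, insulin-transferrin-selenium, dexamethasone and nicotinamide, so the values describe cultures and not liver tissue. VEGF and bFGF themselves had been added to the medium of some cultures. Those cultures carry names that match no sample title, 2 no-injury arrays carry matching numbers in their file labels, and the addition cannot be told apart from the groups. The p-values below measure the spread between these samples only.

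VEGF ligands are secreted dimers that bind receptor tyrosine kinases on endothelium. Vegfa acts through Kdr to drive sprouting and permeability, Flt1 binds Vegfa, Vegfb and Pgf and can act as a decoy, and Flt4 is the receptor of Vegfc and Vegfd in lymphatic vessels. Neuropilins are co-receptors that also bind class 3 semaphorins. In liver, hepatocytes and cholangiocytes are sources of Vegfa, and sinusoidal endothelium is rich in the receptors.

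Cd63 was well above background on all 6 arrays, at 3.65, 4.07 and 3.70 in DDC injury cells and 3.94, 3.88 and 3.95 in no-injury cells. These values, like all levels below, are on a log2 scale relative to the 75th percentile of processed signals on the same array, so a level below 0 is under that percentile, and levels of different probes are not compared. The 75th percentile lay between 1441 and 2271 intensity units, 65.0% to 74.8% of the 43020 spots per array were well above background, and none was saturated. No-injury replicates 1 and 3 differed by no more than repeated spots of an array do (chi-square 145.6, 166 degrees of freedom over 167 probes, p = 0.871 with the spot variance pooled and 0.0863 with that of each probe). They were averaged and counted as 1 sample, so the comparison is of 3 DDC injury samples with 2 no-injury samples, and n = 2 below stands for these. The spread between arrays, relative to that of repeated spots, was 5.14 to 16.3 times for pairs of DDC injury arrays, and 1.73 and 2.08 times for no-injury replicate 2 with replicates 1 and 3. Repeated spots carry no error between arrays, so these ratios leave unsettled whether no-injury replicate 2 came from its own culture, and the results with the 3 no-injury arrays as 1 sample are given beside the calls. Scans fell on 2 days, the first with DDC injury replicate 1 alone, and no scan held arrays of both groups, so scan and group cannot be told apart.

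Vegfb, Vegfc, Vegfd and 1 of 2 Nrp2 probes were higher in DDC injury cells, Flt1 and Flt4 were lower, and the probes of Vegfa, Pgf, Kdr and Nrp1 did not pass the test. Of the 13 probes tested, 4 were higher and 2 lower at an adjusted p under 0.05 (limma, two-sided, Benjamini-Hochberg over 27428 probes). Over all 27428 probes tested, 15.5% were higher, 13.8% were lower and 29.3% were called in either direction. Centring each array on its median gave 3024 probes higher and 1712 lower, against 4243 and 3788 with the 75th percentile, and moved the median difference of all probes to 0.15, against -0.098. In bulk RNA of such cultures, fewer cells that express a gene and less of its RNA per cell cannot be told apart. The calls rest on how the no-injury arrays are counted. With these 3 arrays averaged into 1 sample, or without no-injury replicate 2, Vegfd alone of the 13 probes passed, and 1.50% of all probes were called with the 3 arrays averaged.

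**Figure D1:**
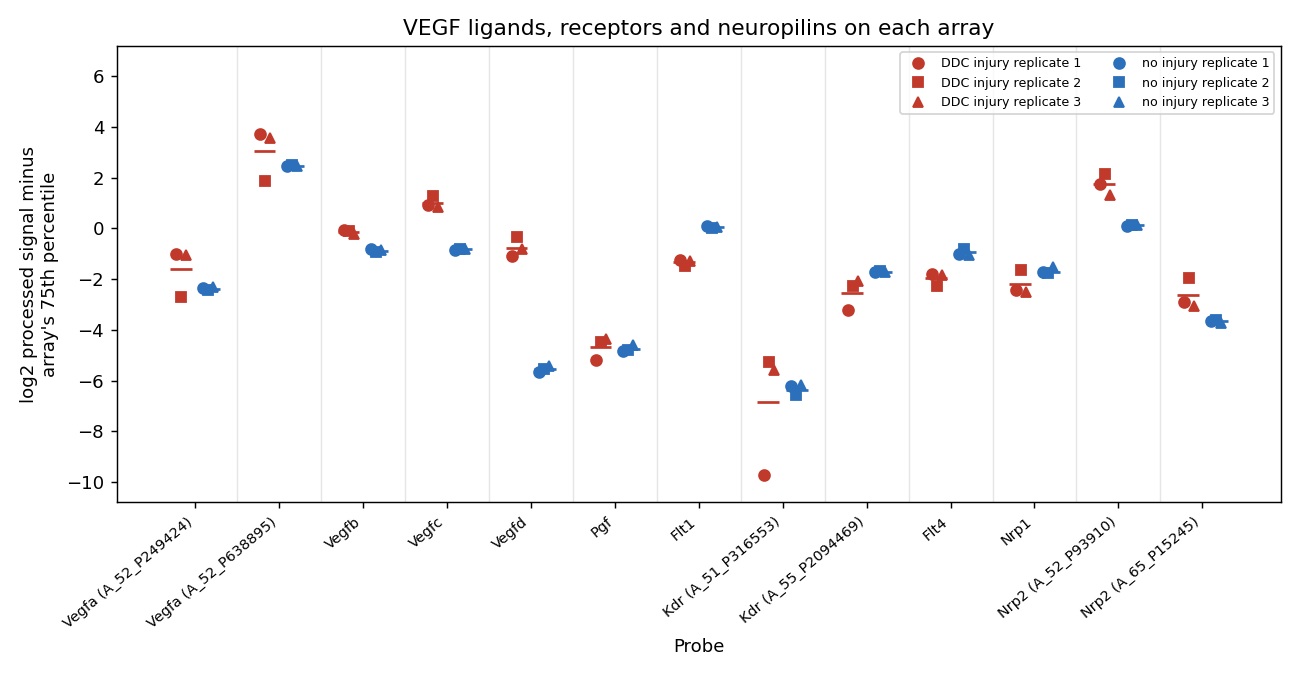
Level of each of the 13 probes on each array (vertical axis, log2 processed signal relative to the 75th percentile of the array), with DDC injury arrays in red left of no-injury arrays in blue and a line at each group's mean (n = 3 and n = 2, with no-injury replicates 1 and 3 averaged). The DDC injury arrays lie above the no-injury arrays for Vegfb, Vegfc, Vegfd and Nrp2 and below them for Flt1, Flt4 and 1 Kdr probe, and they are spread wider for Vegfa and for the other Kdr probe.

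Promoters of 4 members that passed the test are shown, 2 that were higher and 2 that were lower in DDC injury cells, to give the sequence context of genes that differed. Each is the 250 bases before the RefSeq start site, 5′ to 3′ on the gene's strand, from the GRCm38.p6 table. Capitals mark the motifs searched on both strands: the core promoter box (TATAAA), the cyclic AMP response element (TGACGTCA), the AP-1 motif (TGANTCA), the GC box (GGGCGG), the core of the hypoxia response element (ACGTG) and a variant of that core (GCGTG). None of the matches in these 4 windows overlapped.
Vegfd: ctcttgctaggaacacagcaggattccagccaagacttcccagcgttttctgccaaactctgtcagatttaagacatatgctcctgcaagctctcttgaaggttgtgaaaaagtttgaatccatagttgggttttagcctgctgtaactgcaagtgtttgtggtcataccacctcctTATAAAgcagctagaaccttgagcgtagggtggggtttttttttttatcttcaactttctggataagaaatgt
Vegfc: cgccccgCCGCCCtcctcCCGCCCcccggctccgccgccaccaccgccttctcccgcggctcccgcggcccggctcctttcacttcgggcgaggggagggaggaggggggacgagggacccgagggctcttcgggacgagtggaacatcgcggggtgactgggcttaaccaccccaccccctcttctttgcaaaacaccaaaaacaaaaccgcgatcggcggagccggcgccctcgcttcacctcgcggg
Flt1: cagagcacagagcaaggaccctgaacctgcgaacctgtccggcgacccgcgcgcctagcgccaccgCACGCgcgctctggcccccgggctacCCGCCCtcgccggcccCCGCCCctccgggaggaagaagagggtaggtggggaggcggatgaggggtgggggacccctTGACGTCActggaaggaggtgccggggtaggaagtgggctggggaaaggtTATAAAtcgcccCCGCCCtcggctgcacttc
Flt4: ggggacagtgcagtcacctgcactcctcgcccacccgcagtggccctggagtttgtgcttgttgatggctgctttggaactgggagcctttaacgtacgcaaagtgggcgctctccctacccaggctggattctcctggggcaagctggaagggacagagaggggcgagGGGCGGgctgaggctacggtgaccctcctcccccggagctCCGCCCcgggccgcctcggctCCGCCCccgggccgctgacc
The windows lie at chrX:164373272-164373521 on the plus strand for Vegfd, chr8:54077282-54077531 on the plus strand for Vegfc, chr5:147726012-147726261 on the minus strand for Flt1 and chr11:49609429-49609678 on the plus strand for Flt4. The Vegfd window held 1 match, a TATAAA that begins 73 bases before the start, and its GC content was 42.4%, the lowest of the windows of the 10 genes. Flt1 held TATAAA 31 bases and TGACGTCA 81 bases before the start, with 3 GGGCGG matches and 1 GCGTG match. Among 32851 promoter windows of this length 12.4% held TATAAA, 1.55% TGACGTCA, 32.7% GGGCGG, 28.2% GCGTG, 16.6% ACGTG and 6.75% the AP-1 motif. Vegfc held 2 GGGCGG matches, and Flt4 held 3. A match is a string of letters and not a measured site.

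Vegfd, the ligand of Kdr and Flt4 in human and of Flt4 in mouse, showed the widest difference of the family. Its level was -1.10, -0.34 and -0.81 on the DDC injury arrays, against -5.66, -5.54 and -5.41 on the no-injury arrays. All 3 DDC injury arrays stood above all no-injury arrays. The means were -0.75 ± 0.39 (SD, n = 3) in DDC injury cells and -5.54 ± 0.0041 (SD, n = 2) in no-injury cells. The no-injury SD is small only because the average of replicates 1 and 3, -5.53, lay next to replicate 2. It understates the spread of the 3 arrays, which ran from -5.66 to -5.41. Vegfd thus rose by 4.79 ± 0.26 (SE, log2; 27.6-fold, adjusted p = 0.00188, limma), which ranked 46 among the differences of 27428 probes counted from the highest. The probe passed in all 20 alternative fits, with differences of 3.54 to 5.03.

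The Vegfd probe is printed 10 times on the array, and so is 1 Kdr probe, which gives the measurement error within an array. The 10 Vegfd spots had an SD of 0.065, 0.041 and 0.049 on the DDC injury arrays, against 0.17, 0.33 and 0.12 on the no-injury arrays. Their mean processed signal was 1057, 1140 and 895.8 intensity units in DDC injury cells, against 41.0, 48.5 and 50.5 units in no-injury cells. All 10 spots were well above background on each of the 6 arrays, the dimmest DDC injury spot at 855.5 units and the brightest no-injury spot at 78.6 units.

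**Figure D2:**
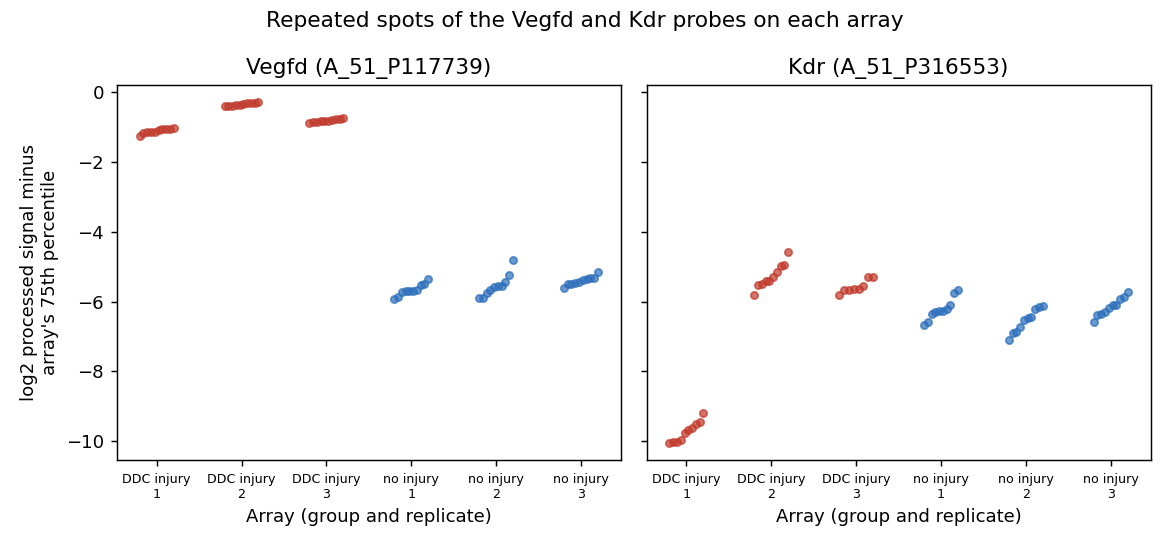
Level of each repeated spot of the Vegfd probe (left) and of the Kdr probe A_51_P316553 (right) on each array (vertical axis, log2 processed signal relative to the 75th percentile of the array; red, DDC injury; blue, no injury). The Vegfd spots of the 2 groups do not overlap, and the Kdr spots of DDC injury replicate 1 lie below those of all other arrays.

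Vegfc, the main lymphatic growth factor, also differed. Its level was 0.91, 1.28 and 0.85 on the DDC injury arrays, against -0.84, -0.79 and -0.82 on the no-injury arrays. The groups did not overlap, and Vegfc rose by 1.82 ± 0.17 (SE, log2; 3.54-fold, adjusted p = 0.00524, limma). Averaging the 3 no-injury arrays into 1 gave adjusted p = 0.0823, and without no-injury replicate 2 adjusted p = 0.0801.

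Vegfb, a ligand of Flt1 linked to fatty acid handling, was at -0.068, -0.099 and -0.23 on the DDC injury arrays, against -0.80, -0.93 and -0.85 on the no-injury arrays. The groups did not overlap, and the spread within each was small. Vegfb rose by 0.75 ± 0.12 (SE, log2; 1.68-fold, adjusted p = 0.0152, limma). The call was lost with the arrays centred on their median (difference 0.99, adjusted p = 0.0641), on averaging the no-injury arrays (adjusted p = 0.17) and without no-injury replicate 2 (adjusted p = 0.172).

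Vegfa, the principal angiogenic ligand, was measured by 2 probes and passed with neither. The brighter probe, A_52_P638895, was at 3.73, 1.88 and 3.55 on the DDC injury arrays, against 2.48, 2.49 and 2.48 on the no-injury arrays. The second probe, A_52_P249424, was at -0.997, -2.71 and -1.04 on the DDC injury arrays, against -2.36, -2.44 and -2.32 on the no-injury arrays. On both probes DDC injury replicates 1 and 3 were above all no-injury arrays and replicate 2 was below them. The differences were 0.57 ± 0.64 (SE, log2; adjusted p = 0.549, limma) and 0.81 ± 0.61 (adjusted p = 0.382). Without DDC injury replicate 2 they were 1.16 (adjusted p = 0.0101) and 1.37 (adjusted p = 0.00684), so that leaving out 1 array changed whether Vegfa passed. Both probes also passed with array weights on the 6 arrays, at 0.88 (adjusted p = 0.0385, limma) and 1.11 (adjusted p = 0.0187).

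Pgf, placental growth factor, which binds Flt1, was at -5.19, -4.46 and -4.37 on the DDC injury arrays, against -4.85, -4.81 and -4.61 on the no-injury arrays. The groups overlapped, and the difference of 0.092 ± 0.30 (SE, log2; adjusted p = 0.841, limma) was within the spread between replicates.

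Flt1, the receptor of Vegfa, Vegfb and Pgf, was lower in DDC injury cells. Its level was -1.24, -1.49 and -1.27 on the DDC injury arrays, against 0.088, 0.0083 and 0.059 on the no-injury arrays. The groups did not overlap. Flt1 differed by -1.37 ± 0.13 (SE, log2; 2.59-fold lower, adjusted p = 0.00527, limma), with -1.42 to -1.13 over the alternative fits. The call ended with the no-injury arrays averaged (adjusted p = 0.088) and without no-injury replicate 2 (adjusted p = 0.0842).

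Flt4, the receptor of Vegfc and Vegfd, was lower as well. Its level was -1.79, -2.25 and -1.82 on the DDC injury arrays, against -0.99, -0.81 and -1.03 on the no-injury arrays. The groups did not overlap, and Flt4 differed by -1.04 ± 0.20 (SE, log2; 2.06-fold lower, adjusted p = 0.0239, limma). This call was the least stable of the 6. It was also lost without DDC injury replicate 3 (adjusted p = 0.0597), with the scan as a random block (adjusted p = 0.062) and with median centring (adjusted p = 0.133), besides the no-injury arrays averaged (adjusted p = 0.177) and without no-injury replicate 2 (adjusted p = 0.188). Flt4 and its ligands Vegfc and Vegfd differed in opposite directions between the same cultures.

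**Figure D3:**
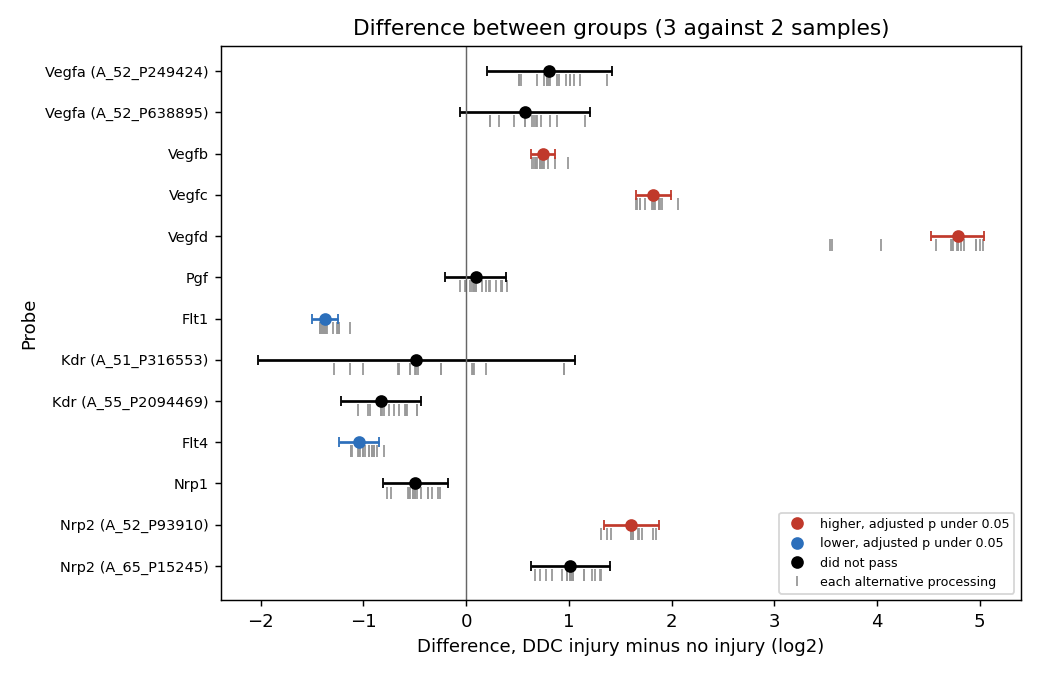
Difference of each probe between the groups (horizontal axis, DDC injury minus no injury, log2) with the standard error of the fit, red for higher and blue for lower at an adjusted p under 0.05 and black for the rest; grey ticks are the alternative fits. The ticks of Vegfd all lie above 3.5, and those of Kdr A_51_P316553 lie on both sides of 0.

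Kdr, the receptor kinase through which Vegfa acts on endothelium, had 2 probes that differed between arrays in different ways. Probe A_55_P2094469 was at -3.24, -2.29 and -2.08 on the DDC injury arrays, against -1.71, -1.69 and -1.72 on the no-injury arrays. All DDC injury arrays were below all no-injury arrays, and the difference of -0.83 ± 0.39 (SE, log2; adjusted p = 0.187, limma) did not pass. Groups did not overlap for 8 of the 13 probes of the family, and for 61.1% of all probes tested.

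The repeated Kdr probe, A_51_P316553, was at -9.74, -5.26 and -5.57 on the DDC injury arrays, against -6.22, -6.56 and -6.16 on the no-injury arrays. On DDC injury replicate 1, 0 of 10 spots were well above background, with a mean of 2.71 intensity units, and every spot kept on the other 5 arrays was well above it. DDC injury replicates 2 and 3 were above all no-injury arrays. The difference was -0.48 ± 1.55 (SE, log2; adjusted p = 0.84, limma), and without DDC injury replicate 1 it was 0.96 (adjusted p = 0.033), in the other direction.

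Endothelial marker genes were also low on DDC injury replicate 1. Of 15 genes of the endothelial list that were well above background on at least 1 array, 13 had their lowest reading of the 6 arrays there, against 30.45% of 17033 named genes. On that array 8 of the 15, Vwf and Cldn5 among them, were not well above background, so their readings there are only bounds. Of the 17033 named genes 2716 were not well above background there. The 30.45% covers genes of all brightness. The 75th percentile of that array was the highest of the 6, at 2271 units, against 1441 to 2203 units on the others. A given signal therefore reads somewhat lower there. Before this scaling, the repeated Kdr probe had a mean of 2.71 units there, against 24.0 to 38.6 units on the other arrays. How far the percentile moved the endothelial readings was not tested. Vwf, the clotting factor carrier of endothelium, was at -9.73, -3.81 and -3.02 on the DDC injury arrays, against -3.84, -2.50 and -1.80 on the no-injury arrays. Cldn5, an endothelial tight junction gene, was at -9.34, -4.23 and -3.36, against -4.06, -5.48 and -2.39. Other lists had their lowest readings there for 6 of 8 myeloid genes, 6 of 9 stellate and fibroblast genes, 6 of 10 hepatocyte genes, 2 of 3 lymphatic genes, 3 of 6 mesothelial genes, 4 of 10 cholangiocyte and progenitor genes and 2 of 6 sinusoidal genes.

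Between the groups, none of the 14 tested endothelial genes passed the test. The summed signal of the 16 listed genes was 1.30 to 1.94 times the array's 75th percentile on DDC injury arrays and 1.59 to 2.11 times on no-injury arrays. Egfl7 alone gave the largest part of this sum on each array, so the sum says little of the dimmer genes. It was at 0.21, -0.11 and 0.11 on the DDC injury arrays, against 0.010, -0.014 and 0.036 on the no-injury arrays. Erg, an endothelial transcription factor, was well above background on 0 of 6 arrays. Of 5 tested genes of the sinusoidal list 1 was higher, the scavenger receptor Stab1, at 3.24 ± 0.26 (SE, log2; adjusted p = 0.00371, limma). The others, Clec4g at -0.74, Oit3 at 0.032, Fcgr2b at 0.87 and Gpr182 at 0.45, did not pass, and Stab2 was well above background on 1 of 6 arrays. No sinusoidal gene was called without no-injury replicate 2 or with the no-injury arrays averaged. Of 3 tested genes of the lymphatic list 1 was lower. It was Prox1, a transcription factor of lymphatic endothelium that liver epithelium also expresses. Prox1 was well above background on the 3 no-injury arrays and on none of the DDC injury arrays. It met the filter through the no-injury arrays alone, so its lower call follows from that selection. Its level in DDC injury cells is only a bound, at least 3.55-fold lower than in no-injury cells. With any 1 no-injury array left out, Prox1 no longer met the filter and was not tested. Without no-injury replicate 1 or 3, neither of the 2 lymphatic genes still tested was called. Prox1 did not pass when the 3 no-injury arrays were averaged. Also lower were 4 of 10 tested hepatocyte, 4 of 8 cholangiocyte and progenitor, 3 of 5 mesothelial and 1 of 7 myeloid genes. No gene of these lists was higher, and 1 of 7 stellate and fibroblast genes was. Over all genes 14.6% were lower and 16.2% higher, close to the shares of the myeloid list and of the stellate and fibroblast list. Without no-injury replicate 2 the lower counts were 0, 1, 1 and 0 in the same order, and averaging the no-injury arrays gave 1, 1, 1 and 0. Leaving out any 1 array gave 0 to 6 hepatocyte, 1 to 4 cholangiocyte and progenitor, 1 to 4 mesothelial and 0 to 2 myeloid genes lower, and 0 to 3 stellate and fibroblast genes higher. Without DDC injury replicate 1 there was 1 hepatocyte gene higher, and without DDC injury replicate 2 there was 1 cholangiocyte and progenitor gene higher. The hepatocyte genes Apoa1 and Fga and the mesothelial gene Upk3b were well above background on no-injury arrays alone and met the filter through them. Their lower calls follow from that selection and are bounds, at least 42.5-, 22.1- and 5.44-fold. With any 1 no-injury array left out they were not tested, which left 8 hepatocyte and 4 mesothelial genes. The counts without such an array thus also lost genes to the filter. Among the other lower calls, the progenitor gene Prom1 and the mesothelial gene Upk1b were well above background on all 6 arrays. Prom1 differed by -8.69 ± 0.22 (SE, log2; adjusted p = 0.00107, limma) and Upk1b by -7.73 ± 0.18 (adjusted p = 0.00107). The summed hepatocyte signal was 11.1 to 17.7 times the 75th percentile on DDC injury arrays and 29.9 to 34.1 times on no-injury arrays. This sum rests mostly on the bright genes Hnf4a and Ttr and does not describe the list evenly. Hnf4a differed by -0.094 (adjusted p = 0.759, limma) and Ttr by -3.94 (adjusted p = 0.0131). The cholangiocyte and progenitor sum was 75.1 to 86.7 times on DDC injury arrays, below each no-injury array, the lowest of which was at 95.0 times. The part of any of these cells in the levels of the family was not tested.

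**Figure D4:**
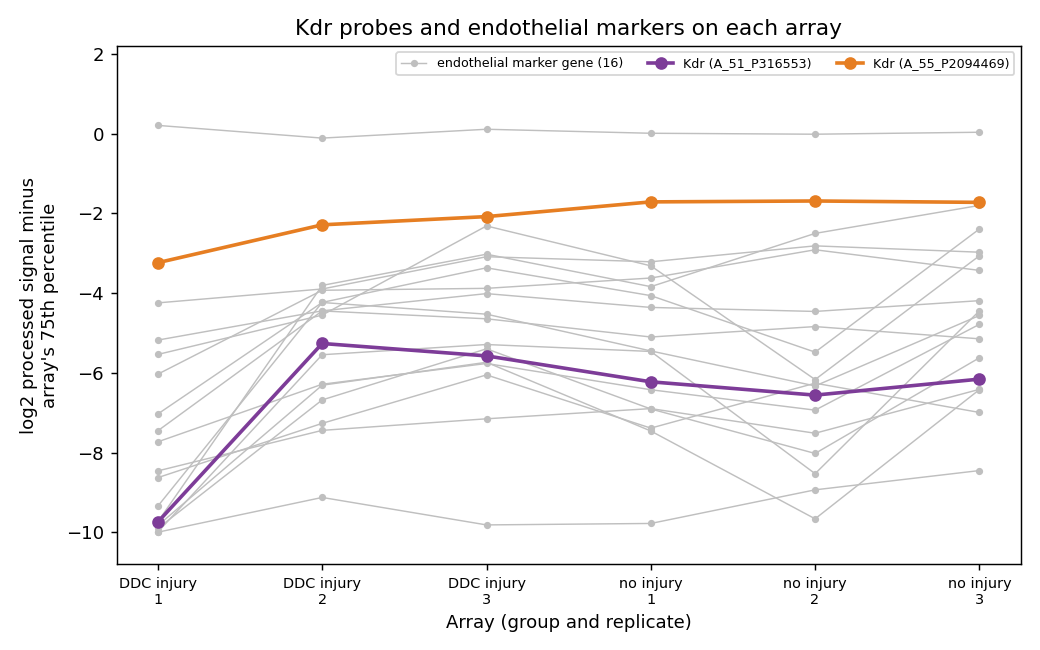
Level on each array (vertical axis, log2 processed signal relative to the 75th percentile of the array) of the 2 Kdr probes (coloured) and the 16 genes of the endothelial list (grey), DDC injury arrays left of no-injury arrays. Kdr A_51_P316553 reads -9.74 on DDC injury replicate 1, not well above background, and 13 of 15 marker genes also have their lowest reading there.

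Of the neuropilins, 1 of 2 Nrp2 probes was higher, and the other Nrp2 probe and Nrp1 did not pass. Nrp2, the co-receptor for Vegfc in lymphatic vessels, had 2 probes, annotated to different transcript records. Probe A_52_P93910 was at 1.75, 2.13 and 1.32 on the DDC injury arrays, against 0.11, 0.14 and 0.12 on the no-injury arrays. It rose by 1.61 ± 0.27 (SE, log2; 3.05-fold, adjusted p = 0.0178, limma). Probe A_65_P15245 was at -2.91, -1.95 and -3.07 on the DDC injury arrays, against -3.63, -3.62 and -3.74 on the no-injury arrays. The groups did not overlap on either probe, but the second difference, 1.01 ± 0.38 (SE, log2; adjusted p = 0.123, limma), did not pass. The first probe had adjusted p = 0.147 when the no-injury arrays were averaged, and without no-injury replicate 2 adjusted p = 0.143.

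Nrp1, the co-receptor for Vegfa, was at -2.43, -1.63 and -2.52 on the DDC injury arrays, against -1.73, -1.77 and -1.53 on the no-injury arrays. The groups overlapped because DDC injury replicate 2 lay among the no-injury arrays. The difference was -0.49 ± 0.32 (SE, log2; adjusted p = 0.315, limma), and without DDC injury replicate 2 it was -0.78 (adjusted p = 0.0173).

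Genes around the family were read from 8 lists, with each gene represented by its probe with the highest mean. Of all 15619 genes represented in this way, 16.2% were higher and 14.6% lower in DDC injury cells (30.8% in either direction, or 33.4% in a fit of 1 probe per gene), and the median difference was -0.068. The counts of the lists are descriptions, with no test of a list. Over all lists together 35 gene calls were made, against 14 without DDC injury replicate 3 and 1 without no-injury replicate 2 or with the no-injury arrays averaged.

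Vegfc and Vegfd are made as precursors that proteases cleave. Of 7 tested genes of this processing list, none was higher and 1 was lower, with a median of -0.13. The one that fell was Plat, tissue plasminogen activator, named here after its value was seen, at -1.35 ± 0.14 (SE, log2; adjusted p = 0.0122, limma), a fit without DDC injury replicate 1, whose spot was left out. Ccbe1, the cofactor of Vegfc cleavage, was at -0.34, 1.096 and -0.32 in DDC injury cells, against -1.22, -1.28 and -1.22 in no-injury cells (difference 1.40 ± 0.52, adjusted p = 0.116, limma). No array had Adamts3, a protease of Vegfc, well above background.

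Of 32 tested genes of VEGF receptor signalling, 2 were higher and 7 lower, with a median of -0.045. Hspb1, a small heat shock protein that is phosphorylated downstream of Kdr, differed by -1.72 ± 0.34 (SE, adjusted p = 0.0259, limma). The receptor phosphatase Ptprb rose by 1.56 ± 0.27 (adjusted p = 0.0191), and the phosphatase Ptprj differed by -1.26 ± 0.18 (adjusted p = 0.0122). A second Ptprb probe rose by 1.29. Of the 4 tested Ptprj probes 3 were lower, and the other differed by -0.15. The kinase Prkca cannot be given a direction, because its 2 probes were called at -0.93 and 1.59.

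Vegfa transcription responds to hypoxia-inducible factors, so their genes and targets were set beside it. Of 13 tested regulators 1 was higher and 2 lower, with a median of -0.23. Hif1a, the oxygen-regulated subunit, rose by 0.83 ± 0.18 (SE, log2; adjusted p = 0.0324, limma), and the coactivator Ppargc1a differed by -1.64 ± 0.24 (adjusted p = 0.0131). Hif3a differed by -1.22 (adjusted p = 0.00415), while 2 other Hif3a probes differed by -0.018 and -0.17 and did not pass. Of 19 tested target genes 6 were higher and none lower, with a median of 0.26. The counts were 7 higher and 3 lower without DDC injury replicate 2, 3 higher and 0 lower without DDC injury replicate 3, and 0 in both directions without no-injury replicate 2 or with the no-injury arrays averaged. Hexokinase Hk2 rose by 2.59 ± 0.15 (adjusted p = 0.00217), Ankrd37 by 1.29 ± 0.10 (adjusted p = 0.00392), the mTOR inhibitor Ddit4 by 0.92 ± 0.10 (adjusted p = 0.00735) and lactate dehydrogenase Ldha by 0.56 ± 0.14 (adjusted p = 0.0436), with 2 other Ldha probes at 1.69 and 1.73. The glucose transporter Slc2a1 differed by -0.12 (adjusted p = 0.447) and carbonic anhydrase Car9 by 0.33 (adjusted p = 0.121).

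Of 6 tested genes of the list of angiopoietins, angiopoietin-like proteins and Tie receptors 2 were higher and 1 lower, with a median of 0.89. Angpt2, the Tie receptor ligand that destabilises vessels, was at -3.18, -2.55 and -3.22 in DDC injury cells, against -5.86, -5.58 and -5.71 in no-injury cells. It rose by 2.70 ± 0.26 (SE, log2; adjusted p = 0.00539, limma). Angptl4, a secreted inhibitor of lipoprotein lipase, was at 2.26, 2.34 and 2.24 in DDC injury cells, against -0.05, -0.13 and -0.06 in no-injury cells. It rose by 2.37 ± 0.11 (adjusted p = 0.00145), and Angpt1, which stabilises vessels, differed by -1.20 ± 0.29 (adjusted p = 0.0451). The groups of these 3 genes did not overlap.

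Semaphorins compete with VEGF for neuropilins and signal through plexins. Of 11 tested genes of this list 2 were higher and 3 lower, with a median of -0.50. Sema3b differed by -2.80 ± 0.51 (SE, log2; adjusted p = 0.022, limma), Sema3f, a ligand of Nrp2, by -1.42 ± 0.33 (adjusted p = 0.0395) and Plxna2 by -0.58 ± 0.13 (adjusted p = 0.0356). The receptor Plxnd1 rose by 1.48 ± 0.16 (adjusted p = 0.007), and its second probe rose by 1.26.

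Of 14 tested angiogenesis inhibitors and VEGF-binding matrix genes 1 was higher and 2 lower, with a median of -0.18. Thrombospondin Thbs1 was at 0.33, 2.16 and 0.28 in DDC injury cells, against -1.73, -1.88 and -1.74 in no-injury cells, and rose by 2.73 ± 0.67 (SE, log2; adjusted p = 0.0443, limma). The protease Adamts1 differed by -1.40 ± 0.12 (adjusted p = 0.00457) and Vash2 by -0.70 ± 0.13 (adjusted p = 0.0251). Of 13 tested genes that VEGF receptors induce in endothelium 5 were higher and 2 lower, with a median of -0.0037. The lower ones were Adamts1, given above, and the calcineurin regulator Rcan1, at -0.82 ± 0.12 (adjusted p = 0.0125). The higher ones included Angpt2, the ERK phosphatase Dusp5, which rose by 1.67 ± 0.32 (adjusted p = 0.0252), and the nuclear receptor Nr4a1, which rose by 0.89 ± 0.21 (adjusted p = 0.0408). Esm1 was well above background on 3 of 6 arrays and did not pass (adjusted p = 0.796).

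**Figure D5:**
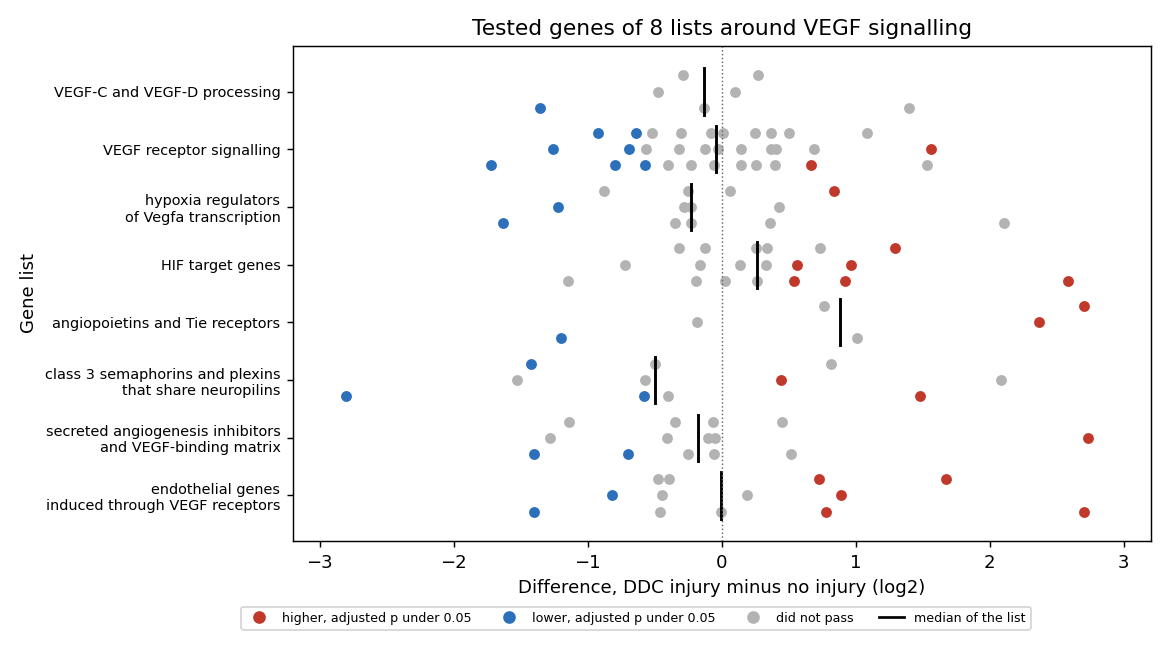
Difference of each tested gene of the 8 lists (horizontal axis, DDC injury minus no injury, log2), red for higher and blue for lower at an adjusted p under 0.05, grey for the rest, with a bar at the list's median. The medians lie between -0.50 and 0.89, and each list holds genes on both sides of 0.

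Genes whose levels followed the members most closely over the 6 arrays were taken from 13152 named genes well above background on all of them. By Pearson's r over the 6 arrays, the closest were Dennd4a and Il1rn to Vegfa, Zfp251 and Apex1 to Vegfb, Spc25 and Tk1 to Vegfc, and Bysl and Cenpu to Vegfd. They were Cry2 and Ralgapa1 for Flt1, Scrn3 and Mycbp2 for Flt4, Tmod4 and Gm6607 for Kdr, Oard1 and Pdhx for Nrp1, Sh3tc1 and Nup35 for Nrp2, and Cldn23 and 3930402G23Rik for Pgf. These r lay between 0.9899 and 0.9999. Between 70 and 2181 genes had r above 0.95 with a given member, so the pairs are a description of these 6 arrays.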

How the data were processed

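Per the file headers, the 6 arrays (Agilent design 026655, Cy3, annotation of build mm9) were read with Feature Extraction 11.0.1.1, and the deposited intensity columns are the processed signal, after background subtraction and detrending, with the median signals of spot and background. Log2 values with shared quantiles make up the deposited value table, and the submitters' processing notes name limma. The authors' starting column is not given in the sources used here.

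Probes were named by accession through a RefSeq table of GRCm38.p6: 27234 of 39429 had 1 symbol. Non-uniform and outlier spots were left out, log2 processed signals were taken minus the 75th percentile, and spots of a probe were averaged. A probe was well above background on an array if at least 50% of its spots were, and was tested if so on at least 3 arrays with 2 values per group. All 27428 probes were fitted with limma 3.58.1 (R 4.3.3, lmFit and eBayes), with a threshold of 0.05 after Benjamini-Hochberg adjustment. The number of samples limits the precision. On simulated data with 27047 probes, 59.4% of 8-fold and 3.2% of 2-fold shifts of 200 probes were recovered, with 3.6 false calls per run. In the data 29.3% of probes were called, many more than were shifted, and the adjustment depends on that share. The recovery rates therefore need not hold for the data.

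Members, lists and the counting of no-injury replicates 1 and 3 as 1 sample were chosen with earlier results of these data known. Named genes are all members, up to 4 genes per list with the largest called differences among those well above background on all 6 arrays, cell type markers, and the 2 genes with the highest r per member; Plat, Ccbe1, Adamts3, Slc2a1, Car9, Rcan1 and Esm1 fall outside this rule and were named after their values were seen. Alternatives changed the background correction (normexp with offset 50), scaling, filter, probe summary, counting of samples, scan and replicate blocks and left out each array.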

Additional observations from a re-analysis of the deposited data

How the results depend on the processing

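Of 256 alternative values of the 13 probe differences, 223 kept their direction and their side of the threshold, 14 no longer passed, 11 newly passed and 8 reversed. Vegfd passed in each. The Kdr probe A_51_P316553 reversed with normexp and the 75th percentile (0.20), normexp and quantile normalization (0.063), the authors' values (0.056), array weights (0.075) and within the second scan day, the same fit as without DDC injury replicate 1 and counted once (0.96), and leaving out 1 array gave -1.28 to 0.96. Pgf reversed with the scan as a random block (-0.0030), and leaving out 1 array gave -0.060 to 0.35. The cause was not tested.

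Against 4 family probes higher and 2 lower, array weights gave 7 higher, median centring 1 lower, and the scan as a random block 1 lower. Averaging the no-injury arrays to 1 sample, which leaves fewer samples, gave 1 higher and 0 lower (limma; at an unadjusted p under 0.05, 4 higher and 2 lower). Leaving out 1 array gave 1 to 7 higher and 0 to 3 lower. Over all probes, against 4243 higher and 3788 lower, the counts were 2761 and 2463 with 1 probe per gene and 2738 and 2433 with the mean of probes, both over fewer features, 6808 and 6786 with array weights, and 279 and 133 with the no-injury arrays averaged. The lower count was 1712 with median centring, 2494 without a filter and 5933 with 6 arrays counted separately. Leaving out 1 array gave 292 to 5490 higher and 108 to 4839 lower. The list calls, 35, were 1 with the no-injury arrays averaged and 1 to 52 when 1 array was left out.

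The replicate block (6 arrays) gave 4 family probes higher and 2 lower. Same-numbered arrays had deviations that correlated at 0.12, 0.036 and 0.083, and 5 of 6 arrays, all but no-injury replicate 2, correlated best with their own number. The labels name no shared animal or batch and not every correlation was over 0.1, so the samples were not treated as paired. Signal over background left the repeated Kdr probe measured on 5 of 6 arrays.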
